A study of Mus musculus with 8 samples.

Results

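The receptors described here are 10 genes through which cells bind collagen or neighbouring matrix. They are the integrin subunits Itga1, Itga2, Itga10, Itga11, Itgb1, Itgav, Itgb3 and Itgb5 and the discoidin domain receptors Ddr1 and Ddr2, taken by symbol from the 23952 named genes of the deposited table, with the most abundant transcript kept for each symbol. All 10 were listed, and all 10 passed the filter for testing (at least 1 RPKM in at least 2 libraries, RPKM being reads per kilobase of transcript scaled to the library's reads). Differences were tested with limma on log2(RPKM + 1) over all 13311 genes that passed, and a gene is called where the Benjamini-Hochberg adjusted p is under 0.05. RNA came from Lewis lung carcinomas, tumors that an established mouse lung carcinoma cell line (LLC) formed after injection under the skin of both flanks of Col1a1-GFP transgenic mice, in which green fluorescent protein marks cells that use Col1a1. The injected cells carried the red protein dTomato from a plasmid and were kept under G418. Fluorescent collagen was injected into the tumors, and single-cell suspensions were made 24 h later. There are 4 groups of 2 libraries, whole tumor (Total tumor), dTomato-positive carcinoma cells (LLC), GFP-positive cells (Fibroblast) and macrophages positive for F4/80 and collagen but negative for dTomato and GFP (TAM, labelled M2). The labels give no strain, age or animal for a library, so the p-values measure the spread between these libraries, which may be technical.

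Integrins are pairs of an alpha and a beta chain. The beta1 chain, encoded by Itgb1, joins the alpha1, alpha2, alpha10 and alpha11 chains to form the integrins that bind native collagen directly, and the alpha chain is usually what limits which of these integrins a cell shows. Alpha11 beta1 is known from fibroblasts, where it takes part in pulling on and remodelling fibrillar collagen. The alpha-v chain, encoded by Itgav, joins beta1, beta3 or beta5 and binds proteins with an RGD sequence such as vitronectin and fibronectin, and collagen mainly once it has been denatured. DDR1 and DDR2 are receptor tyrosine kinases that are switched on by collagen itself. DDR1 is typical of epithelial cells and DDR2 of mesenchymal cells.

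The estimated depth (in units of 1e6 reads) lay between 4.28 and 10.4 per library, and library 2 of each group was the shallower. The 12 macrophage markers summed to 16620 and 21710 RPKM in TAM and to between 98.0 and 548.4 in the other sorted libraries. The 12 fibroblast markers summed to 26470 and 28250 RPKM in Fibroblast and to between 153.5 and 5532 in LLC and TAM. In LLC 1 and LLC 2 they stood at a median of 2.51% and 4.79% of their Fibroblast level, with the highest marker at 67.6% and 65.8%. In TAM 1 and TAM 2 the median was 0.494% and 2.57%, with the highest marker at 1.32% and 3.46%. All 12 markers of each list had values above 0 in the population they define. The fibroblast list holds Col1a1 and the macrophage list Emr1, which encodes F4/80, so these sums are not independent of the sort. The 10 pericyte and smooth muscle markers summed to 400.5 and 240.6 RPKM in Fibroblast and to between 6.49 and 18.2 in LLC and TAM, and the 12 endothelial markers to 95.01 and 71.6 in Fibroblast against 15.2 and 18.4 in LLC, with Cldn5 at 0 in LLC 1. Among the sorted libraries the sums of both lists were highest in Fibroblast, as were Itga11, Itga1 and Itgb3 described here. In Total tumor 1 and 2 the endothelial markers summed to 80.3 and 119.6, where Itga11 stood at 0.895 and 0.302. The pericyte and smooth muscle markers summed to 41.2 and 38.7 there. The part of either list in the results for these genes was not tested. In bulk RNA, fewer cells of a type and less RNA per cell cannot be told apart. The Total tumor libraries differed from each other with transcript length, and those values stand with the whole-tumor results.

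The promoter windows of 4 of the genes are shown because these genes mark the ends of the range found here. Itga11 and Ddr2 had the largest differences between Fibroblast and TAM, and Itgb1 and Itgb5 were abundant in every library. Each line gives the 250 bases before the RefSeq transcription start, 5′ to 3′ on the strand of the gene, from RefSeq on build GRCm38.p6, a later build than the mm9 on which the values were made. Capitals mark matches, on either strand, to 5 motifs: the AP-1 site TGANTCA, the GC box GGGCGG, the TATA box TATAAA, the RUNX site TGTGGT and the CArG box. No match shown overlaps another.
Itga11, chr9:62677605-62677854, plus strand: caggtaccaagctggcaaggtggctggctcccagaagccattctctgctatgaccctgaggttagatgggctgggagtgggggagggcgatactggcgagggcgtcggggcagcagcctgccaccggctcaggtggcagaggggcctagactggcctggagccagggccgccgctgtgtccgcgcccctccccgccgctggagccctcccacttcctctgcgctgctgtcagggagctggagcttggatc
Ddr2, chr1:170088945-170089194, minus strand: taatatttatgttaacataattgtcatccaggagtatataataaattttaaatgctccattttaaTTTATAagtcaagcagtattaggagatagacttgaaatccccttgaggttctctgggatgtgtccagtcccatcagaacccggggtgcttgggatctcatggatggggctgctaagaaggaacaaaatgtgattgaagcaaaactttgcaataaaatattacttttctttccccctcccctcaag
Itgb1, chr8:128685404-128685653, plus strand: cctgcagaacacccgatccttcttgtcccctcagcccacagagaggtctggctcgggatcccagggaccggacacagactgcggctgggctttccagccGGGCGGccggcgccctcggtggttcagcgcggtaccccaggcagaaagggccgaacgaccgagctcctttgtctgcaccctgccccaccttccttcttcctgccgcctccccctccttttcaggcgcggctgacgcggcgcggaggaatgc
Itgb5, chr16:33829415-33829664, plus strand: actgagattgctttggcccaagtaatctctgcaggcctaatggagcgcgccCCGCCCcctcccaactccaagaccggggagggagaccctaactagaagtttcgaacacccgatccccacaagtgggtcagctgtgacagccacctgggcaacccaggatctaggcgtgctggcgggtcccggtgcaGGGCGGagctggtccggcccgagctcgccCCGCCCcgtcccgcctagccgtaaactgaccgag
The Itgb1 window held 1 GC box and the Itgb5 window 3, and the Itga11 and Ddr2 windows held none. Over the 9 genes with a window, 3 held a GC box and 6 did not. The third was Ddr1, in 3 of its 4 windows, a gene whose group means differed 11.9-fold, and Itgav, which was above 1 RPKM in all 8 libraries, held none. A GC box stood in 32.7% of the 32807 windows of this length in the table. The Ddr2 window held 1 TATA box, as did 12.4% of windows with at least 1, and the Itga11 window held no match to any of the 5 motifs. The Ddr2 window was 37.6% G and C and that of Itga11 68.4%, against a median of 52.4%. RefSeq windows matched 9 of the 10 genes, the other being Itgb3. Windows were taken by gene symbol and not by the transcript kept for each gene. Whether the Ddr2 window lies before the start of the transcript tested was therefore not checked, nor was it for the other genes. The motif matches are letters in a window and say nothing of what binds there.

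Of the 4 alpha chains that pair with beta1 to bind collagen, Itga11 set Fibroblast apart. Itga11 (NM_176922) stood at 26.2 and 56.4 RPKM in the Fibroblast libraries, 0.313 and 1.23 in LLC, 0.024 and 0.863 in TAM, and 0.895 and 0.302 in Total tumor. Both Fibroblast libraries lay above all 6 others, although they differed from each other by more than the whole level of any other library. The mean was 41.3 ± 21.3 RPKM (SD, n = 2) in Fibroblast and 0.444 ± 0.593 in TAM. The log2 difference of TAM minus Fibroblast, on log2(RPKM + 1), was -4.84 (SE 0.49, limma adjusted p = 0.000225), and that of Fibroblast minus LLC was 4.53 (SE 0.49, limma adjusted p = 0.000615). The TAM 1 value corresponds to an estimated 1.02 reads and the TAM 2 value to 19.13. With a pseudocount of 0.1 the TAM minus Fibroblast difference was -6.80 and with 5 it was -3.01. TAM 1 and TAM 2 stood at 0.0581% and 2.09% of the Fibroblast mean for Itga11, beside the fibroblast marker medians of 0.494% and 2.57% in the same libraries. The part of fibroblast RNA in these values was not tested.

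Itga1 (NM_001033228), the alpha1 chain known from mesenchymal cells, vessels and tissue-resident lymphocytes, was also highest in Fibroblast. Its RPKM was 7.50 and 6.72 there, against 1.06 and 1.68 in LLC, 0.705 and 2.44 in TAM, and 2.45 and 1.46 in Total tumor. The Fibroblast libraries did not overlap any other, while LLC, TAM and Total tumor overlapped one another. Itga1 was lower in TAM than in Fibroblast (log2 -1.74, SE 0.39, limma adjusted p = 0.00966) and higher in Fibroblast than in LLC (log2 1.78, SE 0.39, limma adjusted p = 0.00992). The first call ended without Fibroblast 1 (limma adjusted p = 0.071), Fibroblast 2 (0.0559) or TAM 1 (0.0666), with alternatives giving 0.00356 to 0.071. The second ended without LLC 1 (0.0747), Fibroblast 1 (0.0723) or Fibroblast 2 (0.0642), in a range from 0.00321 to 0.0747. The TAM libraries differed: TAM 1 held Itga1 at 9.92% and TAM 2 at 34.3% of the Fibroblast mean. Both lay above the highest of the 12 fibroblast markers in the same library (1.32% and 3.46%). Beside this, the 12 endothelial markers summed to 21.0 RPKM in TAM 1 and 49.6 in TAM 2, with none at 0 and Pecam1 alone at 10.8 and 16.5, and the 10 T and NK cell markers to 17.8 and 29.1, with Cd8a, Klrb1c and Ncr1 at 0 in TAM 1 and Ncr1 at 0 in TAM 2. The TAM sort required F4/80, and the part of endothelial, T and NK cells in the Itga1 value was not tested.

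Itga2 (NM_008396), the alpha2 chain of platelets and epithelia, was scarce everywhere. It reached 1.31 and 2.71 RPKM in Fibroblast, 0.390 and 0.278 in LLC and 1.29 in Total tumor 1, was listed at 0 in Total tumor 2 and TAM 1, and stood at 0.106 in TAM 2. Fibroblast was the highest group, and its lower library lay close to Total tumor 1. For Itga2, Fibroblast minus LLC was 1.14 (SE 0.42) and did not pass (limma adjusted p = 0.0643). Itga2 passed there under upper-quartile rescaling (0.0373), with only the groups compared (0.0274), after the length correction (0.0173) and without Total tumor 1 or Total tumor 2. Its difference of TAM minus Fibroblast passed (log2 -1.48, SE 0.42, limma adjusted p = 0.0271), and this call ended without either Fibroblast library (adjusted p = 0.0577 without replicate 1 and 0.227 without replicate 2) or either TAM library (0.132 and 0.0937), in a range from 0.00422 to 0.227. That log2 difference was -3.79 with a pseudocount of 0.1 and -0.47 with 5. Beside it, the 10 epithelial markers summed to 25.6 RPKM in Fibroblast 1 and 198.3 in Fibroblast 2, with Krt5 and Esrp1 at 0 in Fibroblast 1 and none at 0 in Fibroblast 2. They summed to 11.4 and 14.2 in TAM and to 179.4 and 129.2 in LLC, where Itga2 was low: Krt18 and Krt8 were called higher in LLC than in Fibroblast (limma adjusted p = 0.0463 and 0.0359), while Krt19 stood at 16.5 and 99.6 RPKM in Fibroblast and 0.070 and 1.53 in LLC. Their part in the Itga2 values was not tested.

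Itga10 (NM_001081053), the alpha10 chain best known from cartilage, ran the other way, with its highest values in the carcinoma cells. It stood at 2.62 and 3.94 RPKM in LLC, 1.76 and 1.26 in Fibroblast, 2.03 and 1.14 in Total tumor, and 0.535 and 0.489 in TAM. LLC lay above and TAM below all other libraries. Itga10 was lower in TAM than in LLC (log2 -1.49, SE 0.30, limma adjusted p = 0.00577). Neither its difference of TAM minus Fibroblast (log2 -0.72, SE 0.30, limma adjusted p = 0.104) nor that of Fibroblast minus LLC (log2 -0.76, SE 0.30, limma adjusted p = 0.0803) passed. The TAM minus Fibroblast difference passed with only the groups compared (limma adjusted p = 0.0343). That of Fibroblast minus LLC passed without Total tumor 1 or without Total tumor 2.

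**Figure D1:**
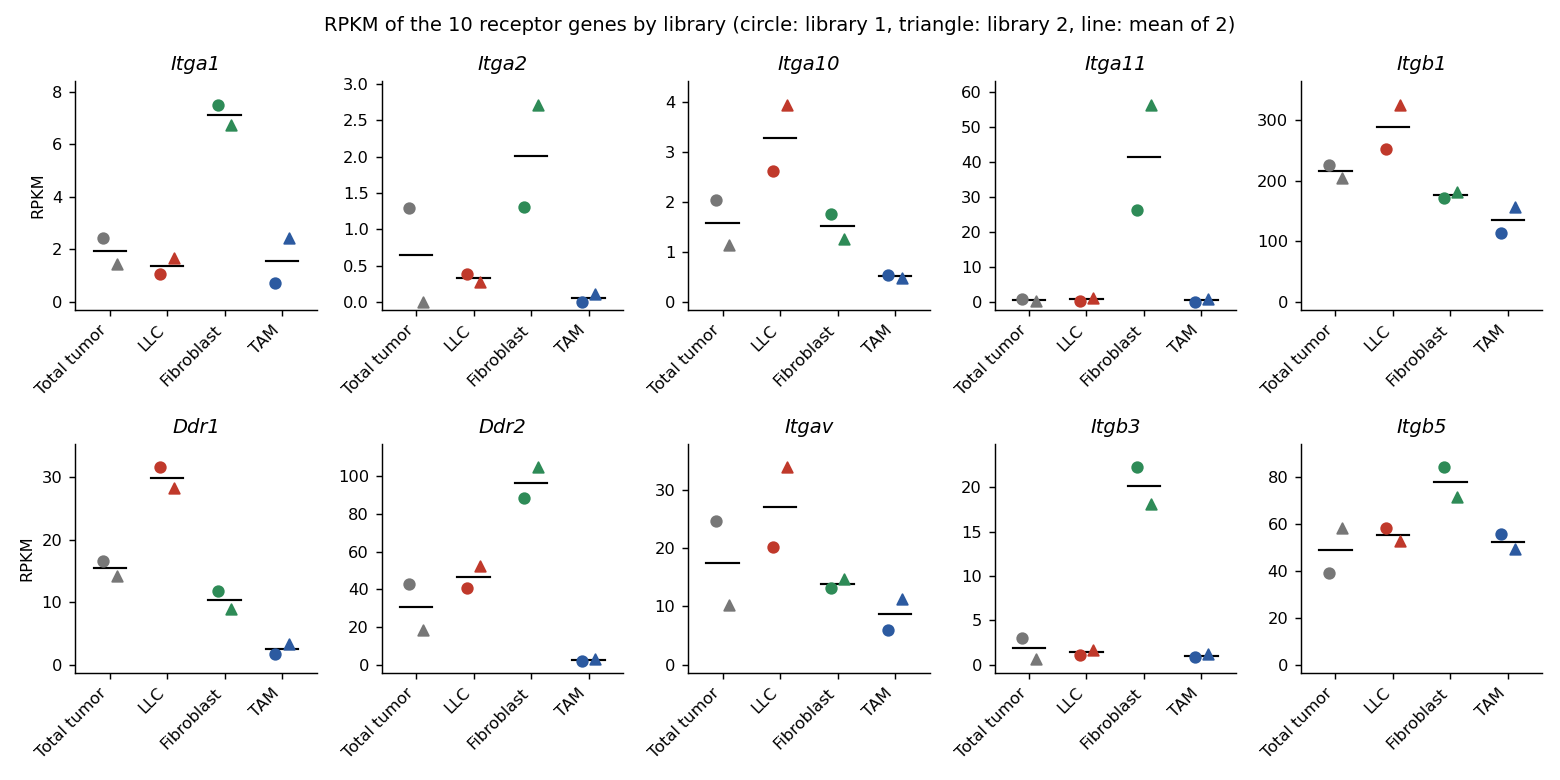
RPKM (vertical axes, each from just under 0 to its own maximum) of the 10 receptor genes in the 4 groups, with a circle for library 1, a triangle for library 2 and a line for their mean. Itga11, Itgb3, Itga1 and Ddr2 stand out in Fibroblast, and Ddr1 and Itga10 in LLC, while Itgb1 and Itgb5 are high in all 8 libraries. Ddr2 in LLC overlaps Total tumor.

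The make-up of the collagen-binding alpha chains was set out by population, as a description with no test. Itga1, Itga2, Itga10 and Itga11 summed to 36.8 and 67.1 RPKM in Fibroblast, 4.39 and 7.14 in LLC, 1.26 and 3.89 in TAM, and 6.66 and 2.90 in Total tumor. Itga11 made up 71.3% and 84.1% of the sum in Fibroblast. In LLC the largest share was that of Itga10, at 59.7% and 55.3%, and in TAM that of Itga1, at 55.8% and 62.5%. Set against the beta1 chain, the summed alpha chains stood at 21.5% and 36.8% of Itgb1 in Fibroblast and at 1.74% and 2.19% in LLC, 1.10% and 2.49% in TAM and 2.94% and 1.41% in Total tumor. All values here are per length, and they compare RNA levels, not protein.

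**Figure D2:**
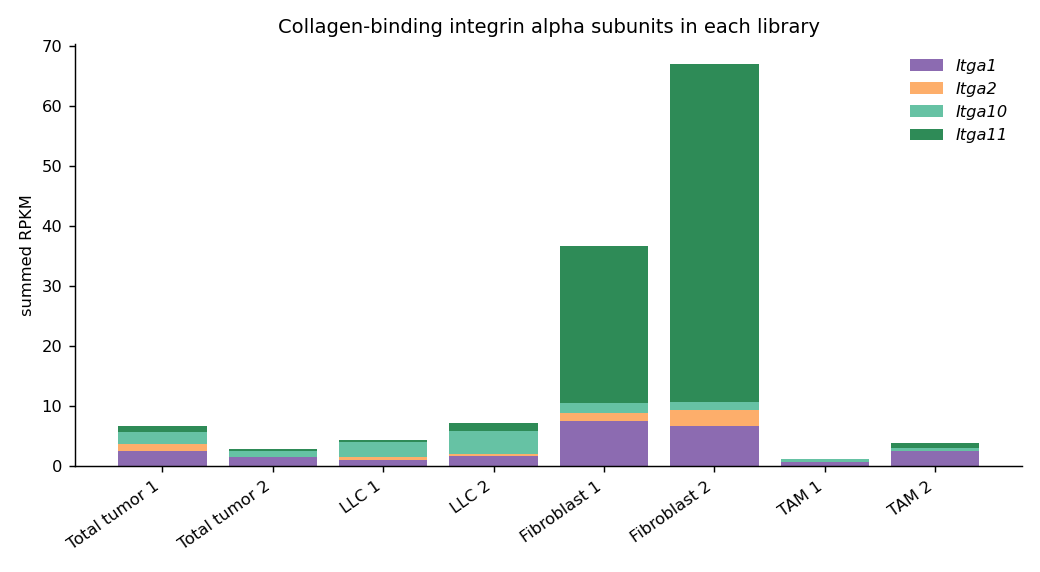
Summed RPKM of the collagen-binding integrin alpha chains (vertical axis) in each of the 8 libraries (bars), split by gene. Fibroblast reaches 36.8 and 67.1 RPKM, mostly Itga11, and no other library exceeds 7.14.

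Itgb1 (NM_010578), the shared beta chain, was the most abundant of the 10 genes in every library and varied the least after Itgb5. It stood at 253 and 326 RPKM in LLC, 227 and 205 in Total tumor, 171 and 182 in Fibroblast, and 114 and 157 in TAM, between the 95.6th and 99.4th percentile of the genes tested. The 4 groups did not overlap, and their order from high to low was LLC, Total tumor, Fibroblast and TAM. Neighbours in that order did not pass, at log2 differences of 0.41 for LLC minus Total tumor, -0.29 for Fibroblast minus Total tumor and -0.40 for TAM minus Fibroblast (SE 0.29 each, limma adjusted p = 0.686, 0.46 and 0.351). Fibroblast minus LLC was -0.70 (SE 0.29) and did not pass (limma adjusted p = 0.0971). It passed with only the groups compared (0.0343), after the length correction (0.0237) and without Total tumor 1 or Total tumor 2. TAM minus LLC passed, at -1.09 (SE 0.29, limma adjusted p = 0.0193). That call ended without LLC 1 (0.0562), LLC 2 (0.128) or TAM 1 (0.13), in a range from 0.00462 to 0.13.

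The discoidin receptors were both low in TAM and differed in where they were high. Ddr2 (NM_022563) stood at 88.3 and 104.8 RPKM in Fibroblast, 40.7 and 52.4 in LLC, 42.6 and 18.6 in Total tumor, and 1.75 and 2.80 in TAM. Fibroblast lay above and TAM below all other libraries, and LLC overlapped Total tumor. Ddr2 was lower in TAM than in Fibroblast (log2 -4.91, SE 0.39, limma adjusted p = 0.000124) and than in LLC (log2 -3.87, SE 0.39, limma adjusted p = 0.000269). TAM 1 and TAM 2 held it at 1.81% and 2.90% of the Fibroblast mean, beside fibroblast marker medians of 0.494% and 2.57%. The highest of the markers there were at 1.32% and 3.46%. In LLC, Ddr2 stood at 42.1% and 54.2% of the Fibroblast mean. The fibroblast markers ran from 0.897% to 67.6% in LLC 1 and from 1.83% to 65.8% in LLC 2. The difference of Fibroblast minus LLC was 1.04 (SE 0.39) and did not pass (limma adjusted p = 0.0684). It passed under upper-quartile rescaling (0.0366), with only the groups compared (0.0106), after the length correction (0.00273), and without Total tumor 1 (0.0096) or Total tumor 2 (0.00944).

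Ddr1 (NM_001198831) was highest in the carcinoma cells. It stood at 31.6 and 28.2 RPKM in LLC, 16.6 and 14.2 in Total tumor, 11.8 and 8.92 in Fibroblast, and 1.74 and 3.27 in TAM, and no group overlapped another. Ddr1 was lower in TAM than in LLC (log2 -3.17, SE 0.29, limma adjusted p = 0.000209) and than in Fibroblast (log2 -1.72, SE 0.29, limma adjusted p = 0.00266), and lower in Fibroblast than in LLC (log2 -1.45, SE 0.29, limma adjusted p = 0.00729). The last call ended under upper-quartile rescaling (0.0515) and without LLC 1 (0.0597) or Fibroblast 2 (0.0753), in a range from 0.00303 to 0.0753. All 4 listed Ddr1 transcripts gave nearly the same values, with means over the 8 libraries from 13.9 to 14.5 RPKM, and the reads behind them cannot be told apart. The ratio of Ddr2 to Ddr1 was 7.50 and 11.8 in Fibroblast, 1.29 and 1.86 in LLC, 1.00 and 0.857 in TAM, and 2.57 and 1.31 in Total tumor. The sum of both was 100.1 and 113.7 RPKM in Fibroblast, 72.2 and 80.6 in LLC, and 3.49 and 6.08 in TAM.

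Among the alpha-v integrins the beta3 chain separated Fibroblast from the rest. Itgb3 (NM_016780), the beta chain of the vitronectin receptor of osteoclasts and of the platelet fibrinogen receptor, stood at 22.3 and 18.1 RPKM in Fibroblast, 1.10 and 1.70 in LLC, 0.829 and 1.24 in TAM, and 3.06 and 0.697 in Total tumor. Only the Fibroblast libraries stood apart, and the other 3 groups overlapped. Itgb3 was lower in TAM than in Fibroblast (log2 -3.38, SE 0.43, limma adjusted p = 0.000586) and higher in Fibroblast than in LLC (log2 3.15, SE 0.43, limma adjusted p = 0.00143), and both calls held under every alternative run. Markers of platelets and megakaryocytes, which use Itgb3, ran both ways beside it. Pf4 and Ppbp made up nearly all of the list's sum of 3288 and 1743 RPKM in TAM, against 37.3 and 32.0 in Fibroblast. Gp1bb stood at 10.7 and 10.3 RPKM in Fibroblast and 1.07 and 0.605 in TAM, and Itga2b at 4.06 and 4.51 against 0.240 and 1.31, both called lower in TAM (limma adjusted p = 0.00482 and 0.012). Of the 10 listed, 6 were at 0 in Fibroblast 1, 5 in Fibroblast 2, 3 in TAM 1 and 5 in TAM 2, with Gp9 and Gp6 at 0 in all 4. Their part in the Itgb3 values was not tested.

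Itgb5 (NM_001145884), the beta5 chain of a second vitronectin receptor, was abundant throughout. It stood at 83.9 and 71.1 RPKM in Fibroblast, 58.2 and 52.5 in LLC, 55.4 and 49.2 in TAM, and 39.0 and 58.3 in Total tumor. Fibroblast lay above the other 6 libraries, which overlapped. No comparison of the sorted populations passed for it, at log2 differences of -0.56 (TAM minus Fibroblast, limma adjusted p = 0.146), 0.48 (Fibroblast minus LLC, 0.185) and -0.08 (TAM minus LLC, 0.834), with an SE of 0.26 for each. The first passed under upper-quartile rescaling (log2 -0.85, adjusted p = 0.0146) and quantile normalization (log2 -0.86, adjusted p = 0.00716) and without Total tumor 1 (0.0345) or Total tumor 2 (0.0342), and the second passed under both rescalings (log2 0.98 and 0.72, adjusted p = 0.0109 and 0.0187). Itgb3 made up 21.0% and 20.3% of the sum of Itgb3 and Itgb5 in Fibroblast and between 1.18% and 7.29% in the other libraries.

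Itgav (NM_008402), the partner of both chains, did not follow either of them. It stood at 20.2 and 33.9 RPKM in LLC, 24.7 and 10.3 in Total tumor, 13.1 and 14.7 in Fibroblast, and 5.97 and 11.3 in TAM. LLC lay above Fibroblast and Fibroblast above TAM, and the Total tumor libraries spanned them. TAM minus LLC passed (log2 -1.55, SE 0.46, limma adjusted p = 0.029). That call ended without a filter (0.0503), under upper-quartile rescaling (0.0721) and quantile normalization (0.0725), and without LLC 2 (0.161) or TAM 1 (0.172), in a range from 0.00354 to 0.172. TAM minus Fibroblast was -0.68 and Fibroblast minus LLC -0.87 (SE 0.46 each), and neither passed (limma adjusted p = 0.307 and 0.174). Fibroblast minus LLC passed after the length correction (limma adjusted p = 0.0299).

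Counted over the 10 genes, TAM held none of them at a higher level than another sorted population by this test. Against Fibroblast, 6 were lower in TAM (Itga1, Itga2, Itga11, Ddr1, Ddr2 and Itgb3) and 4 did not pass, where 34.7% of the 13311 genes tested were called, 17.3% lower and 17.4% higher. TAM lay below Fibroblast without overlap for all 10, as it did for 31.6% of all genes, and 73.1% of all genes had no overlap in either direction. The median over the 10 was -1.60, against 0.13 for all genes tested. Against LLC, 5 were lower in TAM (Itga10, Itgb1, Ddr1, Ddr2 and Itgav) and 5 did not pass, where 42.9% of all genes were called, 27.5% lower and 15.4% higher. The median was -0.72 against -0.38 for all genes. Without LLC 2 or without TAM 1 that count was 3, in fits that called 28.8% and 27.5% of all genes.

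Between Fibroblast and LLC the genes divided. Itga1, Itga11 and Itgb3 were higher in Fibroblast, Ddr1 was higher in LLC, and 6 did not pass, where 38.6% of all genes were called, 13.0% higher and 25.7% lower in Fibroblast. The libraries of all 10 did not overlap, nor did those of 79.2% of all genes. The median was 0.76 against -0.46 for all genes. Upper-quartile rescaling moved the median of all genes to -0.05 and gave 6 higher and 0 lower of the 10, and quantile normalization moved it to -0.19 and gave 4 and 1. These rescalings called 27.8% and 33.1% of all genes, against 38.6% without them. The fit of only these groups called 5 higher and 2 lower, and 54.8% of all genes. Fits without Total tumor 1, without Total tumor 2 and with the length correction each called 5 higher and 3 lower, and 54.3%, 54.1% and 48.7% of all genes. Without LLC 1 or without Fibroblast 2 the count was 2 higher and 0 lower, with 17.6% and 13.1% of all genes called.

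**Figure D3:**
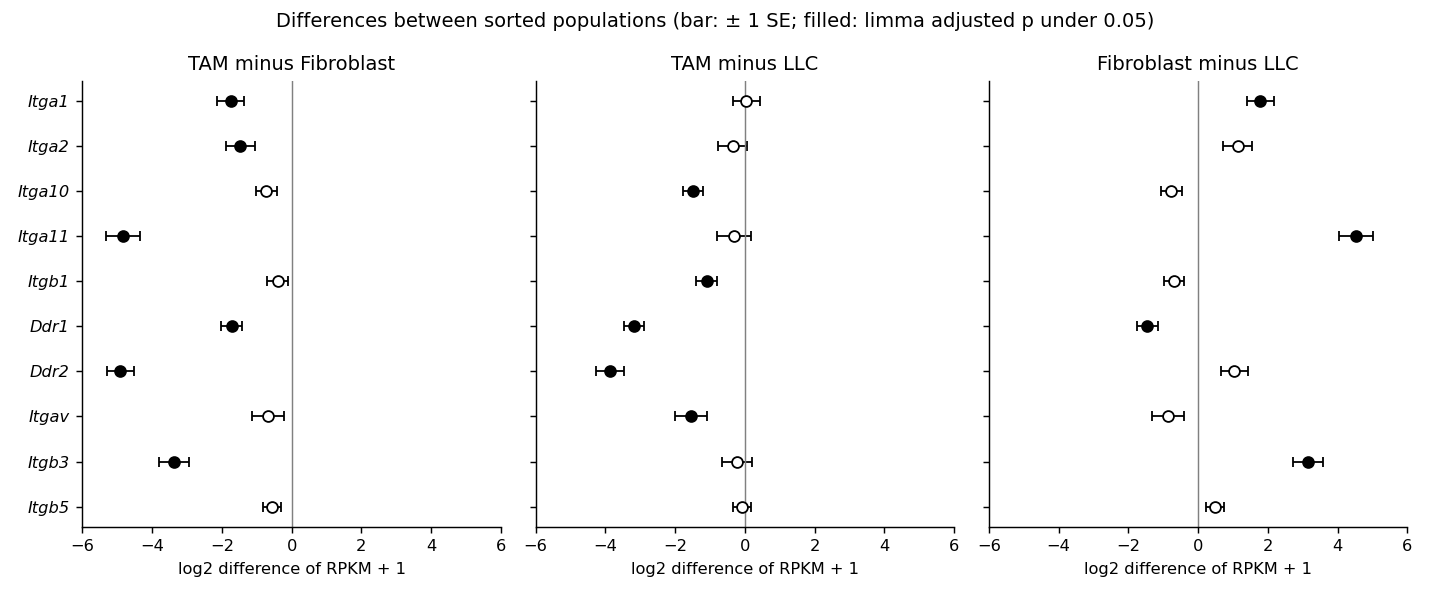
Log2 differences of RPKM + 1 (horizontal axes) between the sorted populations for the 10 genes, with bars of 1 SE from limma and filled points where the adjusted p was under 0.05. TAM lies below 0 for all 10 genes against Fibroblast, with Ddr2 at -4.91 and Itga11 at -4.84, and Fibroblast minus LLC has Itga11 and Itgb3 to the right and Ddr1 to the left.

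The whole tumor was set against its sorted parts to see how much of each transcript it carried. Fibroblast was higher than Total tumor for Itga11 (log2 4.65, SE 0.49, limma adjusted p = 0.000735), Itgb3 (3.01, SE 0.43, 0.00189), Ddr2 (1.73, SE 0.39, 0.0108) and Itga1 (1.48, SE 0.39, 0.0195), with 6 not passing, where 42.1% of all genes were called, 12.1% higher and 30.0% lower. The Ddr2 call ended with only the groups compared (0.0502) and without Fibroblast 1 (0.0507) or Fibroblast 2 (0.0796), and the Itga1 call without Total tumor 2 (0.0629), Fibroblast 1 (0.108) or Fibroblast 2 (0.0927). Without Fibroblast 1 or without Fibroblast 2 the count was 2, in fits that called 17.8% and 14.5% of all genes. The Itgb3 difference was 3.64 without Total tumor 1 and 2.38 without Total tumor 2.

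TAM was lower than Total tumor for Ddr1 (log2 -2.26, SE 0.29, limma adjusted p = 0.00173) and Ddr2 (log2 -3.18, SE 0.39, limma adjusted p = 0.00145), with 8 not passing, where 35.2% of all genes were called, 23.9% lower and 11.3% higher. Without Total tumor 2 the lower count was 6, in a fit that called 41.1% of all genes, with 27.5% lower. For LLC minus Total tumor 0 of the 10 passed by limma and 2, Ddr1 and Itga10, had an unadjusted p under 0.05, where 2.35% of all genes were called, 2.30% lower and 0.0526% higher. Without Total tumor 1, Ddr2 was higher in LLC (log2 1.27, limma adjusted p = 0.0328), in a fit that called 19.0% of all genes. These comparisons share the Total tumor libraries and each sorted group, so their values are not independent.

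The level of Itga11 in the other libraries was set beside that of the fibroblast markers, each as a percent of its Fibroblast mean. Itga11 stood at 2.17% and 0.732% in Total tumor 1 and 2, where the 12 markers had medians of 6.56% and 4.69% and lowest values of 2.87% and 1.40%. In LLC 1 it stood at 0.758%, where the lowest marker was at 0.897%, and in LLC 2 at 2.99%, within their range. The place of Itga11 under all markers rested on Fibroblast 2 in LLC 1 and Total tumor 1. Against Fibroblast 1 alone, Itga11 was at 1.19% in LLC 1 and 3.42% in Total tumor 1, above the lowest marker there (0.873% and 2.73%). In Total tumor 2 and TAM 1 it lay under every marker with either Fibroblast library as the reference. Itga1 stood at 34.4% and 20.5%, Ddr2 at 44.1% and 19.3% and Itgb3 at 15.2% and 3.45% of the Fibroblast mean in Total tumor. The markers were chosen for their level in fibroblasts, and no test of Itga11 against them was made.

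**Figure D4:**
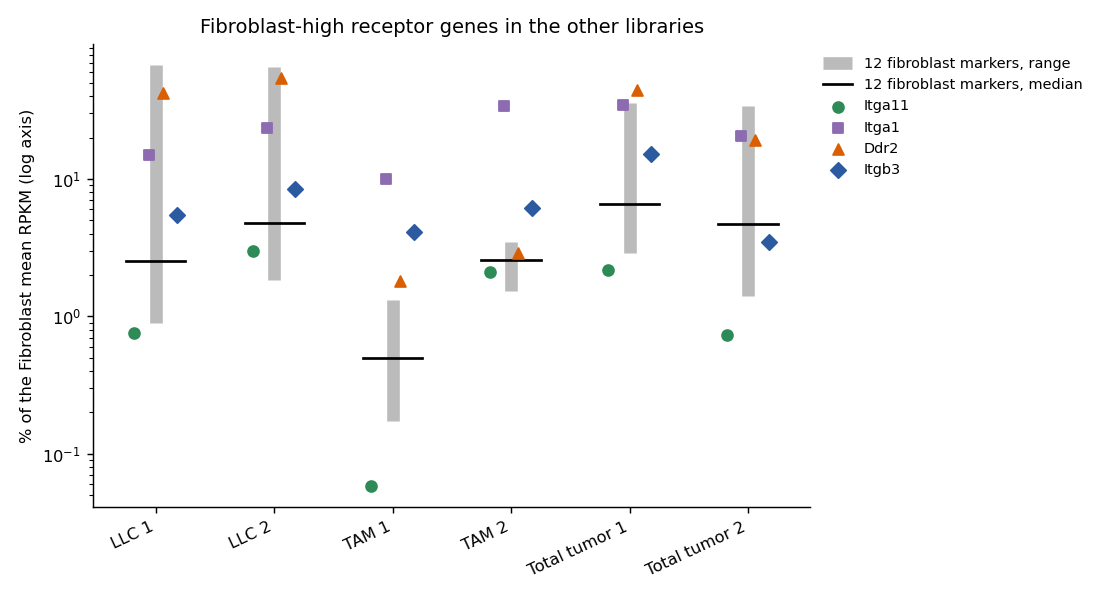
Level of Itga11, Itga1, Ddr2 and Itgb3 in each LLC, TAM and Total tumor library as a percent of the Fibroblast mean RPKM (log axis), with the range (grey bar) and median (black line) of 12 fibroblast markers. Itga11 lies under the whole marker range in TAM 1 and Total tumor 2, and also in LLC 1 and Total tumor 1, where it lies inside the range if Fibroblast 1 alone is the reference. Itga1 and Itgb3 lie above the range in both TAM libraries, and Ddr2 lies above it in TAM 1 and Total tumor 1.

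The Total tumor libraries did not agree on the long receptor transcripts. Total tumor 2 minus Total tumor 1, as a difference of log2(RPKM + 1), was -1.15 for Ddr2, -1.18 for Itgav, -1.19 for Itga2, -1.26 for Itgb3 and -0.49 for Itga1, all with transcripts of at least 5784 bases. It was -0.54 for Itga11 (4969 bases), -0.21 for Ddr1 (3627 bases), -0.15 for Itgb1 (3815 bases) and 0.57 for Itgb5, at 3282 bases the shortest of the 9 with a known length. The median over all genes tested was -0.84 for transcripts over 6000 bases, 0.02 for those of 2000 to 4000 bases and 0.92 for those under 1000 bases. The part of transcript length in the differences with Total tumor was not tested beyond the length correction, under which 4 of 9 genes were lower in TAM than in Total tumor, Itgb1 and Itgav (limma adjusted p = 0.0223 and 0.0268) besides Ddr1 and Ddr2, in a fit that called 43.6% of all genes against 35.2% without the correction.

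**Figure D5:**
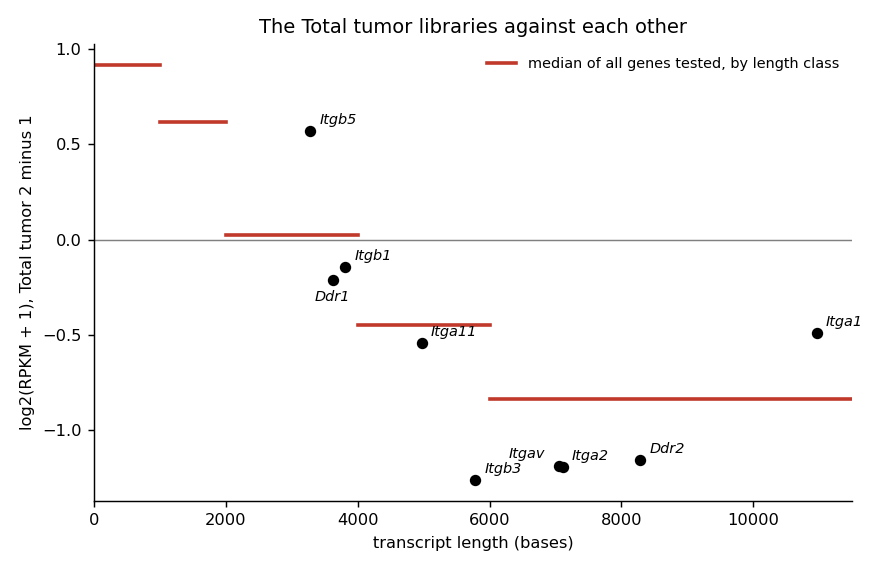
Difference of log2(RPKM + 1) between Total tumor 2 and Total tumor 1 (vertical axis) against transcript length in bases (horizontal axis) for the 9 receptor genes with a known length (points) and the median of all genes tested in 5 length classes (lines). Itgb5 lies at 0.57, and the 5 longest transcripts lie between -1.26 and -0.49.

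The ligands of these receptors were mostly low in TAM and high in Fibroblast. For the list counts from here on, 17.4% of all genes were called higher and 17.3% lower in TAM than in Fibroblast. Against LLC, 15.4% of all genes were higher and 27.5% lower in TAM, and 13.0% higher and 25.7% lower in Fibroblast. Of 17 collagen genes listed, 13 were tested, and all 13 were lower in TAM than in Fibroblast (median log2 -5.39, against 0.13 for all genes). The largest differences were those of the fibrillar collagen chains Col1a2 (-6.62), Col1a1 (-6.61, a gene on which Fibroblast was sorted) and Col5a2 (-6.36). Between Fibroblast and LLC 7 were higher, led by Col1a2 (5.55) and Col5a2 (5.34), 1 was lower, Col8a1 (-1.41), and 5 did not pass. Against LLC, 10 of the 13 were lower in TAM, with Col16a1 (-4.64) and Col6a1 (-4.30) in the lead.

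Of 13 tested RGD-type ligands of the alpha-v integrins, 8 were lower and 3 higher in TAM than in Fibroblast (median -3.19). Postn, Fbn1 and Cyr61, matrix and matricellular proteins, had log2 differences of -6.38, -6.33 and -5.96, and Tgfb1, Spp1 and Thbs1 were the higher ones (3.21, 2.19 and 1.83). The carcinoma cells led in Spp1, the phosphoprotein osteopontin, at 1420 and 1105 RPKM in LLC against 126 and 52.2 in Fibroblast (log2 of Fibroblast minus LLC -3.93, limma adjusted p = 0.00204), and in Edil3 (-3.69). Vtn, which encodes vitronectin, stood at 11.8 and 10.9 RPKM in Fibroblast and 0.055 and 0.134 in LLC (log2 3.50, limma adjusted p = 0.000326).

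Other integrin chains marked TAM and LLC. Of 10 other alpha chains tested, 5 were higher and 2 lower in TAM than in Fibroblast (median 1.14 against 0.13 for all genes). In the lead were the leukocyte chains Itgam (320.1 and 471.7 RPKM in TAM, log2 5.84) and Itgax (3.24). Next came the fibronectin and VCAM-1 receptor chain Itga4 (2.63), and the laminin receptor chain Itga7 (-2.67) was lowest. Itgb2, the beta chain of the leukocyte integrins, stood at 283.7 and 372.0 RPKM in TAM against 5.47 and 8.36 in Fibroblast (log2 5.39, limma adjusted p = 0.00011). Against Fibroblast, LLC was higher in the laminin receptor chains Itga3 (23.0 and 16.1 RPKM, log2 of Fibroblast minus LLC -3.40) and Itga6 (-2.85) and in Itgb7 (-3.22), and Fibroblast in Itga9 (2.28) and in Itgbl1 (3.46), which encodes an integrin-like secreted protein.

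Among 11 other collagen receptors tested, 8 were higher and 3 lower in TAM than in Fibroblast (median 1.63). Mrc1, Msr1 and Lair1, the mannose receptor, a scavenger receptor and an inhibitory receptor of leukocytes, had log2 differences of 6.17, 5.40 and 4.84. Mrc2, Pla2r1 and the heparan sulfate proteoglycan gene Sdc1 were the lower ones, at -5.35 for Mrc2 and -3.19 for Pla2r1. Against LLC 6 were higher and 1 lower, with 4 not passing (median 1.28 against -0.38 for all genes). TAM was sorted as positive for the injected collagen, and Mrc1 is also on the macrophage marker list. The counts and differences for these collagen receptors may therefore not be independent of the sort. The part of the sort in them was not tested.

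Genes of the machinery that links integrins to actin were divided between higher and lower where TAM was compared with Fibroblast or LLC. Of 27 integrin activators and adaptors tested, 8 were higher and 8 lower in TAM than in Fibroblast (median 0.22 against 0.13 for all genes). The kindlins, which switch integrins on, changed places: Fermt3, the kindlin of blood cells, had 205.9 and 162.6 RPKM in the TAM libraries against 3.40 and 3.36 in Fibroblast (log2 5.39, limma adjusted p = 0.000159), and Fermt2, the kindlin of most other tissues, at 1.63 and 3.80 in TAM and 58.1 and 45.5 in Fibroblast (log2 -3.88, limma adjusted p = 0.000165). Dab2 (4.01) and Parvb (3.84) were higher and Lims2 (-4.67) and Tenc1 (-4.11) lower in TAM. Of 22 focal adhesion kinases and scaffolds, 6 were higher, led by the leukocyte paxillin relative Lpxn (5.09), and 7 lower, led by its relative Tgfb1i1 (-4.46), which encodes Hic-5 (median -0.20). Against LLC 7 were higher and 7 lower, with the kinases Ptk2b (3.31) and Ptk2 (-2.64), which encode PYK2 and FAK, on opposite sides.

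The genes whose levels ran most like those of each receptor over the 8 libraries were taken from the 8362 tested genes with a group mean of at least 10 RPKM, by Pearson's r on log2(RPKM + 1). The 8 libraries fall into 4 populations, so any gene with the same group pattern gives a high r, and no p is given. For Itga11 these were Maob (r = 0.997), Agtr1a (0.996) and Vit (0.996), for Itgb3 Nrep (0.997), Akr1c14 (0.997) and Tshz2 (0.996), and for Itga1 Clec3b (0.990), Postn (0.986) and Pi16 (0.986). For Ddr2 they were Arhgap42 (0.997), Dcbld2 (0.995) and Ggcx (0.995). The LLC-high genes gave Mbtps1 (0.990), Tgfb3 (0.988) and Kifap3 (0.988) for Ddr1 and Usp46 (0.973), Smad3 (0.972) and Exoc6b (0.969) for Itga10. For Itgb1 they were Scd2 (0.990), Snx4 (0.985) and Llgl1 (0.982), for Itgav Mbnl2 (0.984), Rdx (0.983) and Setd5 (0.980), for Itga2 Ap3m2 (0.945), Mex3b (0.921) and Inhbb (0.918), and for Itgb5 Cebpd (0.947), Slc38a10 (0.928) and Gstm1 (0.927).

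Among the receptors themselves, Itga1, Itga11 and Itgb3 ran together, with r between 0.943 and 0.968 for their pairs. Ddr2, which was also highest in Fibroblast but stood high in LLC, had r between 0.620 and 0.677 with these genes. Itga2, scarce everywhere, had r between 0.826 and 0.882 with them. Itgb1, Ddr1, Itga10 and Itgav formed another set, with r between 0.830 and 0.933. Ddr2 had r between 0.625 and 0.758 with this other set. Itgb5 had r between 0.5837 and 0.7145 with Itga1, Itga11 and Itgb3, and between -0.287 and -0.0118 with the other set. Across the sets, Ddr2, Itga2 and Itgb5 aside, the values lay between -0.0851 and 0.114. These are descriptions over 8 libraries that share their populations.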

How the data were processed

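RNA from 8 libraries was prepared by the authors with oligo-dT priming and read at 50 bp on an Illumina HiSeq1500, per the labels' protocols. The deposited RPKM values (reads per kilobase of transcript, scaled to the library's reads) come from STAR and HOMER on build mm9, per the submitters' processing notes. Which versions, filters and strand setting they ran is not stated in those sources. Left out were the 3 of 31645 transcripts without a gene name (at most 0.0032% of a library's RPKM). Per symbol, the transcript with the highest mean RPKM was kept.

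RPKM is not a count, so limma 3.58.1 was run on log2(RPKM + 1) for the 13311 genes with at least 1 RPKM in at least 2 libraries, with 1 fit over all 8 libraries, a variance trend and no rescaling (4 residual degrees of freedom, prior 3.62). Benjamini-Hochberg adjusted p-values under 0.05 were called over all genes tested, in 6 comparisons. On simulated data of 13311 genes for TAM minus Fibroblast, 4, 50, 76 and 94% of 50 genes each were recovered at log2 differences of 1, 2, 3 and 4, and 7 unchanged genes were called. Only those genes differed there, all raised in TAM, whereas 34.7% of all genes were called in the data. The simulated recovery therefore does not carry over to these data.

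Each library's depth is an estimate: the one that puts the most low RPKM values within 0.05 of a whole number of reads (57.5 to 62.2% of them). Transcript lengths came from GENCODE M21 by RefSeq accession (97.4% of transcripts, Itga10 not matched). Read estimates are approximate. RPKM carries no counting error of its own, and precision rests on 2 libraries a group.

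The 10 genes and all lists were chosen with earlier results of these data known. Of each pathway list, at most 3 called genes per direction without overlap between libraries were named. Other settings tried were a pseudocount of 0.1 or 5, a filter at 5 RPKM or none, upper-quartile and quantile rescaling, no trend, only the groups compared, a replicate term, mean over transcripts, a length correction and each library left out. Each Fibroblast library alone as the reference for Itga11 was added after seeing the data.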

Additional observations from a re-analysis of the deposited data

How the results depend on the processing

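Of 60 results (10 genes in 6 comparisons), 21 were called and 0 of these changed direction under the 20 alternatives. Of the 21, 8 lost the call somewhere, 16 of the others gained one, and 17 uncalled results reversed somewhere; the cause was not tested. The number of genes called was 6 for TAM minus Fibroblast (4 to 7 with 1 library left out), 5 for TAM minus LLC (3 to 5), 4 for Fibroblast minus LLC (2 to 8), 2 for TAM minus Total tumor (2 to 6), 0 for LLC minus Total tumor (0 to 1) and 4 for Fibroblast minus Total tumor (2 to 5). Where 1 library is left, it is assumed to vary like the other groups. Fibroblast minus LLC gave 7 with only the groups compared and 8 with the length correction, which also gave 4 for TAM minus Total tumor; Itga10 has no length, and a filter of 5 RPKM left 8 genes.

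With a pseudocount of 0.1, Itga1 for TAM minus LLC was -0.012 and Itga2 for LLC minus Total tumor 0.21. Upper-quartile rescaling gave Itgb5 0.12 for TAM minus LLC, and for Fibroblast minus Total tumor Itga10 0.34, Itgb1 0.33, Ddr1 0.029 and Itgav 0.38. Quantile normalization gave Itgb3 0.081 for TAM minus LLC, Itga1 0.26, Itga11 0.27 and Itgb3 0.12 for TAM minus Total tumor, Itga2 0.13 and Itgb3 0.040 for LLC minus Total tumor, and Itga10 0.094 and Itgav 0.27 for Fibroblast minus Total tumor. The length correction gave Itga11 -0.10 for LLC minus Total tumor.

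With 1 library left out, TAM minus LLC ran from -0.46 to 0.55 for Itga1, -0.74 to 0.12 for Itga11 and -0.16 to 0.0033 for Itgb5. TAM minus Total tumor ran from -0.77 to 0.24 for Itga1, -1.12 to 0.073 for Itga2, -0.62 to 0.25 for Itga11, -1.01 to 0.25 for Itgb3 and -0.16 to 0.41 for Itgb5. LLC minus Total tumor ran from -0.78 to 0.41 for Itga2, -0.26 to 0.51 for Itga11, -0.77 to 0.49 for Itgb3 and -0.076 to 0.49 for Itgb5. Fibroblast minus Total tumor ran from -0.28 to 0.22 for Itga10 and -0.78 to 0.40 for Itgav.

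The labels share replicate numbers 1 and 2 without saying what a number marks. The replicate block gave 6, 5, 4, 2, 0 and 4 genes called in the order above and changed no call of these genes. Of all genes it called 31.2, 38.1, 33.0, 30.0, 1.95 and 36.4%, against 34.7, 42.9, 38.6, 35.2, 2.35 and 42.1% without a block. Deviations of same-numbered libraries correlated at -0.36 to -0.18 between Total tumor and the sorted groups and at 0.16 to 0.27 among the sorted groups. A replicate block with the Total tumor numbers crossed, chosen after seeing the data, gave 6, 5, 8, 3, 0 and 5. This crossed block also called more of all genes, at 40.2, 49.0, 46.5, 42.3, 2.95 and 49.0%.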
